A study of Sus scrofa with 88 samples.

Results

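The data described here are the 40 arrays on which littermates that were high and low for backfat depth were compared, out of 88 arrays in the series. They were chosen by their labels, which give each channel as high or low for backfat depth at the 10th rib (BF). The whole series covers 176 F2 pigs of 44 litters from a Duroc x Pietrain cross, with RNA taken from their loin muscle. In 20 litters the 2 males and 2 females that were extreme for BF were taken, and each array paired the high with the low pig of 1 sex in 1 litter, so that 80 pigs, 20 male pairs and 20 female pairs entered. The remaining 48 arrays, from 24 litters, paired pigs that were extreme for loin muscle area (LMA) in the same way.

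The high and the low pigs shared the cross, the litter, the sex of the pair, the diets and the sampling of the longissimus dorsi, the loin muscle, at slaughter. They differed by their rank for BF within the litter and not by a treatment or a known allele, and the size of the BF difference in each pair was not analysed here. The high pig carried the dye Cy3 on 23 arrays (12 male and 11 female pairs) and Cy5 on 17 arrays (8 male and 9 female pairs). In 11 litters the male and the female high pig carried different dyes, and in 9 litters the same dye. The study's methods describe opposite dyes for the high male and the high female of a litter, so the labels of the litters with the same dye go against that design. Each deposited value is a normalized log2 ratio of the 2 pigs on an array, so a level in a single pig is not known, and neither the tissue nor its cell types could be checked against the levels of their markers.

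Backfat is the subcutaneous fat over the loin, in which adipocytes store triglyceride around lipid droplets. Its depth in pigs is set by feed intake, by fatty acid synthesis and release in the fat itself, and by how much energy muscle uses for growth and contraction, and hormones such as leptin and ghrelin pass signals on energy stores between fat, gut and brain. Loin muscle is made mostly of fast fibers, with some fat cells, vessels, nerves and immune cells between them, and RNA of the whole tissue holds all of these. In such samples fewer cells of a type and less RNA per cell cannot be told apart.

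The numerator of the ratio was checked against the dye labels. If the ratios had been deposited in the order of the dyes, arrays with the high pig on Cy5 and on Cy3 would share the dye effects of the spots with the same sign. Their mean ratios over the 20736 spots had instead a correlation of -0.821 (across spots, and spots are no independent replicates). Over spots, the mean of all 40 arrays had an SD of 0.0392 in the deposited order, against 0.113 once the 23 arrays with the high pig on Cy3 were given the opposite sign. These 23 arrays also carry values of up to 10 significant digits, where the 17 arrays with the high pig on Cy5 carry up to 6, without exception in either set. In the order of the dyes as labelled, the ratios of all 40 arrays correlated above 0 with the mean of the other 39, at 0.241 or more, and at 0.298 or more where male and female high pig shared a dye. For these reasons the ratios were read in 1 fixed order of high and low pig. Whether this order is high over low or low over high is not given in the sources used here. All signs below are relative for this reason. A positive coefficient means more measured RNA on average in the numerator pigs, whether these are the high or the low ones. Ratios as deposited still hold the dye effect, so the sign of a ratio can also come from dye.

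No difference between high and low BF littermates passed the test. Of 20736 spots, 0 had an adjusted p under 0.05 (0% of spots, limma with Benjamini-Hochberg adjustment, smallest adjusted p 0.589). At an unadjusted p under 0.05 there were 1009 spots, or 4.87%, 460 positive and 549 negative in coefficient. The p-values were spread evenly, with 1001 to 1078 spots in each of 20 bins of equal width. At the far end 27 spots had an unadjusted p under 0.001. The coefficient of a spot, the mean log2 ratio after its dye effect was taken out, had a median size of 0.01, and 10299 coefficients were positive and 10437 negative.

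Most coefficients were bounded closely. The 95% interval of the coefficient reached a median of 0.04 to either side (quartiles 0.03 and 0.06). For 89.6% of spots the whole interval lay inside a 1.1-fold difference in either direction, and for 98.3% inside a 1.2-fold difference, which left 348 spots. At 1.5-fold 9 spots were left, and the interval end farthest from 0 stood for a 1.95-fold difference. The coefficient farthest from 0 was -0.60, of a spot with no gene symbol. These bounds hold for the mean over 20 litters and not for a single pair. They are bounds on the measured ratios. Channel intensities were not analysed here and control spots were kept, so it is not known which spots detected RNA.

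**Figure D1:**
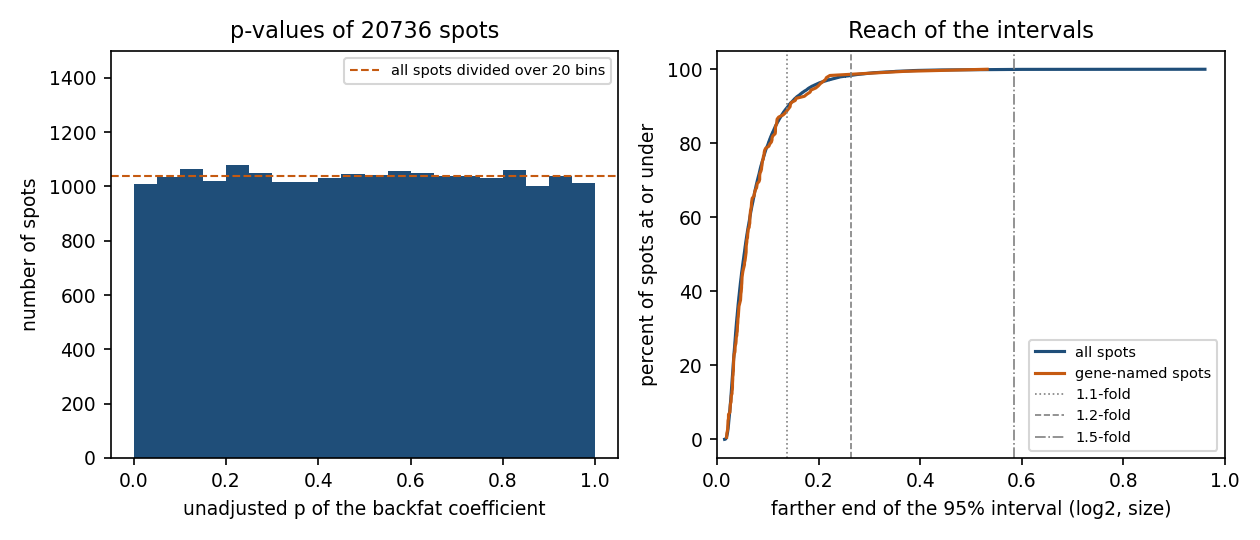
Left, number of spots by the unadjusted p of the backfat coefficient in 20 bins (all 20736 spots, dashed line at the mean of 1037 spots per bin); right, the percentage of spots whose 95% interval ends at or under a given size (log2), for all spots and for the 178 gene-named spots, with lines at 1.1-fold, 1.2-fold and 1.5-fold. The bins hold 1001 to 1078 spots each, and both curves have passed 98% at 1.2-fold.

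The array annotation used here gives a symbol for 178 spots of 175 genes, with 4 spots for ASIP. It gives none for the other 20558 spots, which may hold further genes of the lists counted below. Of the 178, 0 passed after adjustment over all spots and 9 (5.06%) had an unadjusted p under 0.05, 5 positive and 4 negative in coefficient, against 4.87% of all spots. All 178 intervals lay inside a 1.5-fold difference. Only those of LMCD1, JUN and OCA2 reached past 1.2-fold, with farthest ends of 0.53, 0.37 and 0.29. The 10 named spots with the smallest p are described in the following paragraphs by their roles. None of them passed, so their values stand as measurements with their errors and not as changes. For single genes, the ratios, their means and medians, and the counts of arrays and litters above or below 0 have the dye effect left in. Since the high pig carried Cy3 on 23 arrays and Cy5 on 17, dye can shift these values and counts. Only the coefficients have the dye effect taken out.

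**Figure D2:**
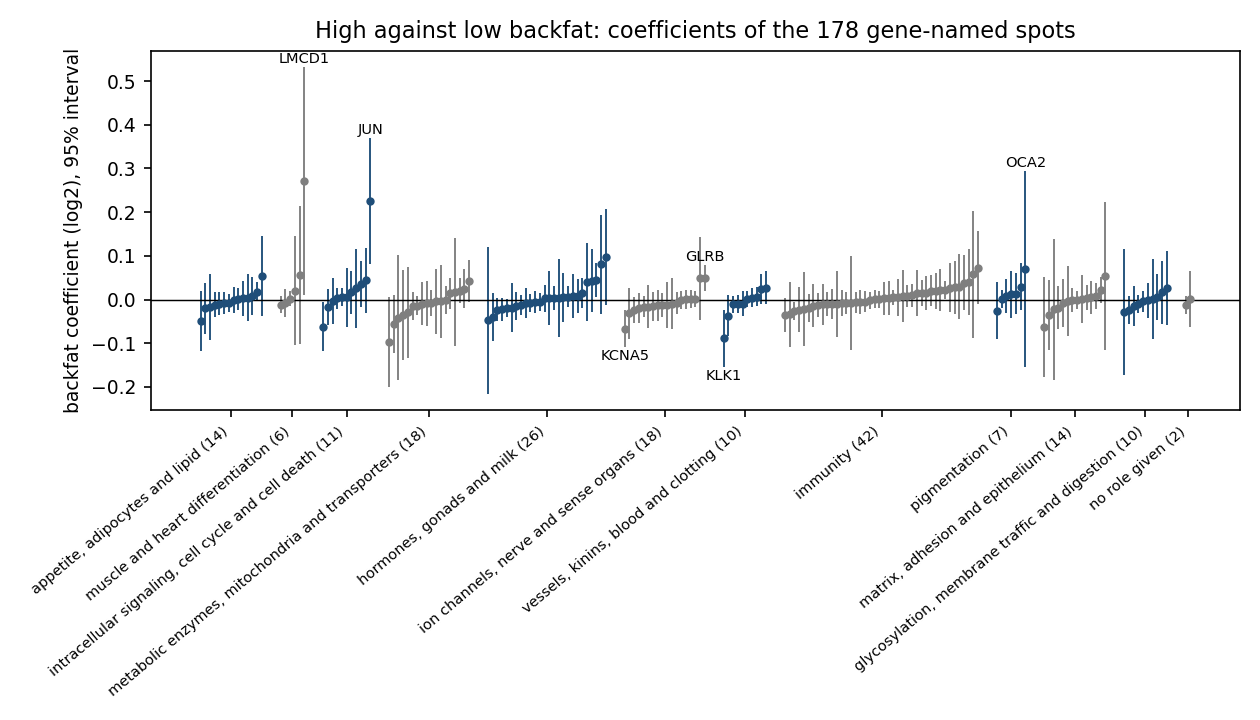
Backfat coefficient (log2, points) with its 95% interval (vertical lines) for each of the 178 gene-named spots, ordered by size within 12 groups of roles, with the number of spots of each group in parentheses. Most intervals include 0, those of LMCD1 and JUN reach highest (0.53 and 0.37), and KLK1 and KCNA5 are among the spots whose interval lies below 0.

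JUN encodes the AP-1 transcription factor subunit that is induced early after growth signals and stress. Its ratio over the 40 BF arrays ran from -1.08 to 1.60, with a median of 0.19. It was above 0 on 29 arrays, on 14 of 20 male and 15 of 20 female pairs. In 10 litters both pairs were above 0, in 1 litter both were below and in 9 litters the pairs split. The lowest ratio, that of the male pair of litter 88, stood alone, with the next lowest at -0.35. The mean ratio was 0.17 ± 0.48 in male and 0.36 ± 0.52 in female pairs (SD, n = 20 each). It was 0.03 ± 0.46 on the 17 arrays with the high pig on Cy5 and 0.44 ± 0.47 on the 23 with the high pig on Cy3. The BF coefficient was 0.23 ± 0.07 (SE), a 1.17-fold difference, with p = 0.00293 and an adjusted p of 0.881. With 1 litter left out at a time it lay between 0.19 (without litter 122) and 0.27 (without litter 88), with unadjusted p-values from 0.000332 to 0.00913. KLF4, another early response gene, had a coefficient of 0.00 (95% interval -0.06 to 0.05).

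PIK3C3, the class III phosphatidylinositol 3-kinase of autophagy and endosomal sorting, had ratios from -0.67 to 0.26, with a median of -0.04, and lay above 0 on 14 of 40 arrays. Its coefficient was -0.06 ± 0.03 (SE, p = 0.0304, adjusted p 0.990). The remaining 9 genes of signaling, cell cycle and cell death had coefficients between -0.02 and 0.04. These included GNAS, the stimulatory G protein subunit of hormone receptors, at 0.04, and FAS, a death receptor, at 0.00.

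Of the muscle genes, LMCD1, a LIM domain protein that acts as a transcriptional cofactor in heart and skeletal muscle, had the widest ratios. They ran from -1.63 in the male pair of litter 92 to 2.45 in the male pair of litter 121, with a median of 0.16, and were above 0 on 25 arrays. The ratios were farther apart in male pairs (0.18 ± 1.03) than in female pairs (0.38 ± 0.59; SD, n = 20 each), a difference in spread that was not tested, and on 11 arrays littermates differed more than 2-fold. The coefficient was 0.27 ± 0.13 (SE, p = 0.0420, adjusted p 0.990), and 0.19 (p = 0.131) without litter 121. MYH7, the slow myosin heavy chain, had ratios from -1.29 to 1.42 with a median of 0.02 and a coefficient of 0.06 (95% interval -0.10 to 0.21). For MYOD1, a master regulator of myogenesis, these were -1.0001 to 0.96, a median of 0.02 and a coefficient of 0.02 (-0.10 to 0.14). The heart and smooth muscle regulators GATA6 and MYOCD and the activin receptor ACVR2B had coefficients of -0.01, 0.00 and -0.01.

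Ion channel genes gave the 2 smallest p-values among named spots. GLRB, the beta subunit of the inhibitory glycine receptor, had ratios from -0.19 to 0.26, with a median of 0.06, and lay above 0 on 29 arrays. In 11 litters both pairs were above 0, in 2 both below and in 7 they split. Its coefficient was 0.05 ± 0.01 (SE, p = 0.00168, adjusted p 0.820), a 1.03-fold difference. Without the dye term the coefficient was 0.06. KCNA5, a voltage-gated potassium channel of heart and vessels, lay below 0 on 29 arrays, with ratios from -0.65 to 0.13 and a median of -0.06. Both pairs were below 0 in 10 litters and above 0 in 1 litter. The coefficient was -0.07 ± 0.02 (SE, p = 0.00248, adjusted p 0.820), and with 1 litter left out at a time the p-values ran from 0.000890 to 0.00756. Over all 18 spots for channels, nerve and sense organs, 13 coefficients were negative and 5 positive, with a median of -0.01. Over all 20736 spots 10437 were negative, with a median of 0.00.

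KLK1, tissue kallikrein, which releases kinins that widen vessels, had ratios from -0.65 to 0.33, with a median of -0.05, and was above 0 on 15 arrays. The 3 lowest ratios were those of female pairs, and the mean was -0.04 ± 0.19 in male and -0.12 ± 0.23 in female pairs (SD, n = 20 each). Its coefficient was -0.09 ± 0.03 (SE, p = 0.00919, adjusted p 0.967). The other 9 genes of vessels, blood and clotting had coefficients from -0.04 for the leukotriene receptor CYSLTR2 to 0.03 for the vasoconstrictor urotensin 2, UTS2.

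Among hormone and reproductive genes, PRLR, the prolactin receptor, had ratios from -0.21 to 0.36, with a median of 0.05 and 23 arrays above 0. The coefficient was 0.04 ± 0.02 (SE, p = 0.0291, adjusted p 0.990). Prolactin itself, PRL, had much wider ratios, from -1.08 to 1.56, but these still contained the dye effect. The highest came from an array with the high pig on Cy3 and the lowest from one with it on Cy5. The coefficient of PRL was 0.08 (95% interval -0.03 to 0.19). CYP21A2, the steroid 21-hydroxylase of the adrenal cortex, had the highest coefficient of the 26 spots of this group, 0.10 (-0.01 to 0.21). The female pair of litter 131 had a ratio of 2.13, and the other 39 ratios lay between -0.19 and 0.33. Of the 26 coefficients 14 were positive and 12 negative, and the lowest was that of the inhibin alpha subunit INHA, at -0.05.

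In the immune group, CD4, the coreceptor of helper T cells, had ratios from -0.24 to 0.14 with a median of -0.02, above 0 on 17 arrays. Its coefficient was -0.03 ± 0.01 (SE, p = 0.0167, adjusted p 0.990). SCGB1D1, a secreted protein of the secretoglobin family, had ratios from -0.15 to 0.17 and a median of 0.02, above 0 on 27 arrays, with a coefficient of 0.02 ± 0.01 (SE, p = 0.0442, adjusted p 0.990). These are differences of 1.02-fold for CD4 and 1.01-fold for SCGB1D1. Of the 42 immune spots 23 had positive and 19 negative coefficients, from -0.04 for IL17A to 0.07 for the chemokine receptor XCR1. A list of 20 markers of immune cells and antigen presentation had 4 members with a known spot, 3 with positive coefficients, and the highest was that of TYROBP, the signaling adaptor of myeloid and natural killer cells, at 0.06 (95% interval -0.09 to 0.20).

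The spots of the genes closest to fat storage had small coefficients. Whether these spots detected RNA of their genes in loin muscle is not known, since channel intensities were not analysed here. From a list of 15 adipocyte and lipid droplet genes 3 had a spot with a known symbol. PLIN1, which coats the lipid droplet, had ratios from -0.21 to 0.15, with a median of 0.00 and 20 of 40 arrays above 0. RETN, the hormone resistin, ran from -0.20 to 0.25 and ADIG, adipogenin, from -0.60 to 0.52, both again with 20 arrays above 0. The coefficients of PLIN1, RETN and ADIG were -0.01 (95% interval -0.03 to 0.02), -0.01 (-0.04 to 0.02) and -0.02 (-0.08 to 0.04), so that none of the intervals reached a 1.1-fold difference. ACADS, which starts the mitochondrial oxidation of short-chain fatty acids, had ratios from -0.67 to 0.46 and a coefficient of -0.05 (-0.12 to 0.02).

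The spots for genes of appetite and energy balance also gave narrow bounds, and whether they detected RNA of these genes is likewise not known. All 6 members of a list of 20 that had a spot with a known symbol had positive coefficients, from 0.00 to 0.03. Over all 20736 spots, 10299 coefficients were positive. Of the 6 members, 0 passed the test before or after adjustment. The group holds the stomach hormone ghrelin (GHRL) at 0.02, the leptin receptor LEPR at 0.00, the melanocortin precursor POMC at 0.00, orexin (HCRT) at 0.01, the neuropeptide NPW at 0.00 and UTS2 at 0.03. The interval farthest from 0 among them ended at 0.06. GHRL lay above 0 on 20 of 40 arrays, and LEPR on 22.

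ATP5G1, a subunit of the membrane part of mitochondrial ATP synthase, ranked last of the 10 by p. Its ratios ran from -1.15 to 0.44, with a median of -0.09 and 17 arrays above 0, and the coefficient was -0.10 ± 0.05 (SE, p = 0.0640, adjusted p 0.990). Without litter 109 it was -0.07, with p = 0.186. It was the lowest coefficient of all named spots. In its group of 18 metabolic enzymes and transporters 13 coefficients were negative and 5 positive, with a median of -0.01. Of these 18 spots 0 had an unadjusted p under 0.05, and over all 20736 spots 10437 coefficients were negative. GOT1, the cytosolic aspartate aminotransferase, had a coefficient of -0.04 (95% interval -0.19 to 0.10) and NTAN1, an asparagine amidase of protein turnover, 0.04 (-0.01 to 0.09).

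The remaining groups held wide single genes and small coefficients. OCA2, needed for melanosome function, ran from -2.01 to 1.67 with a median of 0.02 and a coefficient of 0.07 (95% interval -0.15 to 0.29). The 4 spots of ASIP, the antagonist of the melanocortin 1 receptor, had coefficients between 0.01 and 0.03, the receptor MC1R -0.03, and the melanin synthesis enzyme DCT 0.00. In the matrix and adhesion group, integrin beta 1 (ITGB1) had a coefficient of 0.05 (-0.12 to 0.22) and caveolin 1 (CAV1) of -0.06 (-0.18 to 0.05). RPN2, a subunit of the enzyme that adds N-linked sugars, was at -0.03 (-0.17 to 0.12), and HBE1, an embryonic globin and the 1 member with a known spot in a list of 7 blood genes, at -0.01 (-0.04 to 0.02).

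Among the spots without a symbol, those with the smallest p of each sign were 15435 and 15954, with coefficients of 0.11 (p = 0.000335) and 0.12 (p = 0.000543), and 15343 and 15240, with coefficients of -0.11 (p = 4.15e-05) and -0.12 (p = 0.000166). Their ratios were above 0 on 26, 28, 8 and 12 of 40 arrays. The adjusted p of these 4 spots lay between 0.589 and 0.697.

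**Figure D3:**
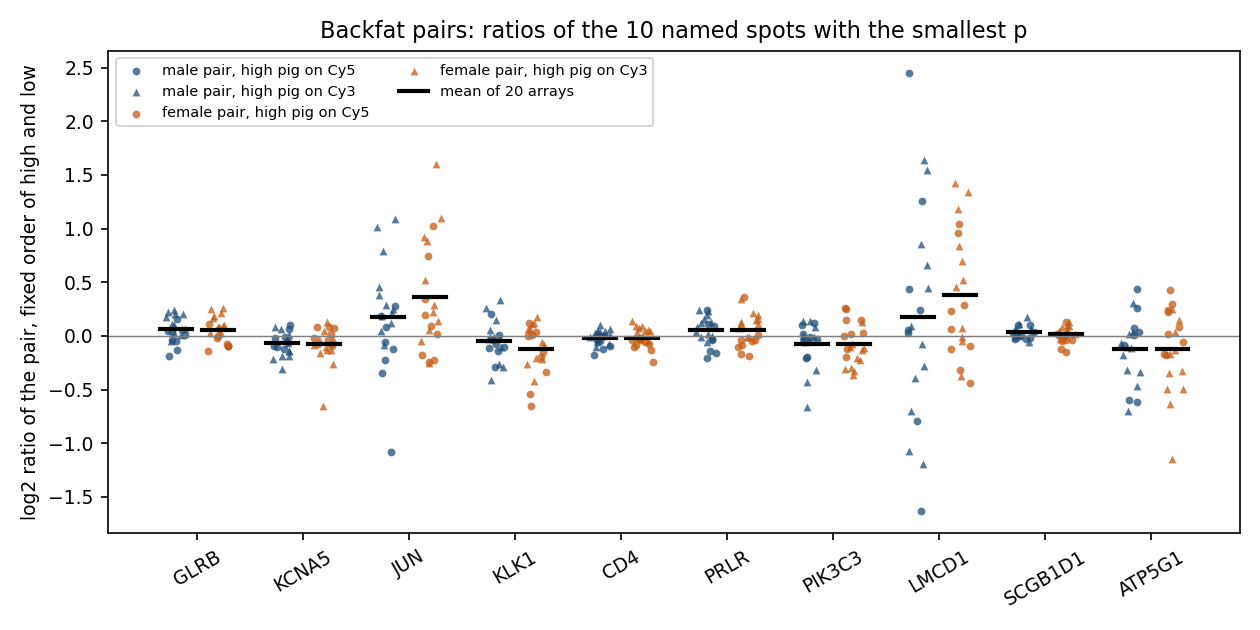
Log2 ratios (fixed order of high and low pig, dye effect left in) on the 40 backfat arrays for the 10 gene-named spots with the smallest p. Each point is 1 array, male pairs left of female pairs, round where the high pig carried Cy5 and triangular where it carried Cy3. Black bars give the mean of 20 arrays. Ratios of every gene lie on both sides of 0, and those of LMCD1 (-1.63 to 2.45) and JUN (-1.08 to 1.60) are spread much wider than those of GLRB (-0.19 to 0.26).

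Male and female pairs were compared by the difference of their BF coefficients. Of 20736 spots, 0 passed after adjustment (0%, smallest adjusted p 0.852), and 1190 spots (5.74%) had an unadjusted p under 0.05, 700 with a higher and 490 with a lower coefficient in male pairs. Of the named spots, 14 did so. The coefficients of male and female pairs had a correlation of 0.0518 across all spots. ACBD3, a Golgi scaffold protein, had coefficients of -0.08 in male and 0.11 in female pairs, a difference of -0.19 ± 0.07 (SE, p = 0.00719). For ADCYAP1, the neuropeptide PACAP, they were -0.06 in male and 0.02 in female pairs, a difference of -0.08 ± 0.03 (p = 0.00818), and for PLIN1 -0.04 in male and 0.02 in female pairs, a difference of -0.06 ± 0.02 (p = 0.00897). The adjusted p was 0.852 for all 3.

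The BF coefficients were then set against the LMA coefficients of the 48 arrays of the other litters, in 1 fit. The difference passed for 0 of 20736 spots (0%, smallest adjusted p 0.999), and 953 spots (4.60%) had an unadjusted p under 0.05, 7 of them named. JUN had a coefficient of 0.22 in BF and 0.00 in LMA litters, a difference of 0.22 ± 0.10 (SE, p = 0.0261). NPG4, a protegrin antimicrobial peptide, was at 0.02 in BF and -0.07 in LMA litters (difference 0.08 ± 0.04, p = 0.0210), and SCAMP1, a carrier protein of membrane traffic, at -0.03 in BF and 0.04 in LMA litters (difference -0.06 ± 0.03, p = 0.0251). All 3 had an adjusted p of 0.999. The BF and LMA ratios may not run in the same order of high and low, which the sources used here do not give, so the fit was repeated with the sign of the LMA ratios turned, an alternative chosen after seeing the data. It again passed for 0 spots (smallest adjusted p 0.744), with 836 spots (4.03%) and 7 named spots under 0.05 unadjusted. JUN was then at 0.23 ± 0.10 (p = 0.0219), NPG4 at -0.05 ± 0.04 (p = 0.176) and SCAMP1 at 0.01 ± 0.03 (p = 0.745), so the values of NPG4 and SCAMP1 hold only for 1 of the 2 orders. The named spots of smallest p with the sign turned were KCNA5 (-0.12 ± 0.03, p = 0.000601) and the cone arrestin ARR3 (-0.04 ± 0.02, p = 0.0191), with an adjusted p of 0.9998 for both.

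Dye effects passed in the same 40 arrays for 9335 spots (45.0%), 4366 with a positive and 4969 with a negative sign in the order of the dyes. Of the named spots 93 passed.

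The distance between littermates in either direction was described by the spread of the ratios. The SD of a spot's residual ratios over the 40 arrays had a median of 0.13 and reached 1.36. For 18916 of 20736 spots (91.2%) no ratio went beyond 2-fold, a count in which dye effects may take part. The widest named spots were LMCD1 with an SD of 0.84, OCA2 with 0.72, INHA with 0.56, ITGB1 with 0.53, S100A11 and MYH7 with 0.52, RPN2 with 0.48, TYROBP and GOT1 with 0.47 and JUN with 0.46. By this SD they stood above 96.8% of all spots or more. Spots that were wide in BF litters were mostly wide in LMA litters too: the SDs over the BF and the LMA arrays had a correlation of 0.889 (Spearman's rho 0.918) across spots, and 6 of these 10 genes were also among the 10 widest named spots in LMA litters. These values are a description across spots that share arrays, probe design and signal strength, and the part of signal strength in them was not tested.

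**Figure D4:**
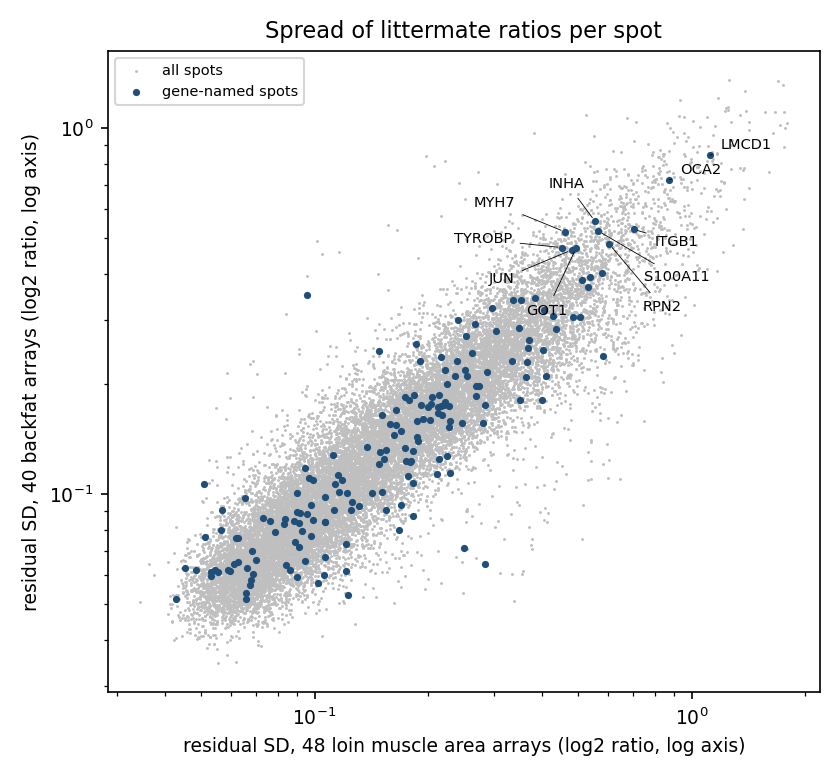
Residual SD of the log2 ratios of each spot over the 40 backfat arrays (vertical, log axis) against that over the 48 loin muscle area arrays (horizontal, log axis), for all spots in grey and gene-named spots in blue, with the 10 widest named spots labelled. LMCD1 (0.84) and OCA2 (0.72) lie highest among named spots, and the points follow a diagonal (r = 0.889).

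Single pairs held much of the spread of some of these genes. INHA had its highest ratio, 2.64, in the male pair of litter 100 and its lowest, -1.12, in the female pair of the same litter, and its SD was 0.33 without that litter, against 0.56 with it. S100A11, a calcium-binding protein of migrating and dividing cells, and TYROBP both had their lowest ratio in the female pair of litter 88, at -2.02 and -1.88. Their SDs were 0.42 and 0.35 without litter 88, against 0.52 and 0.47 with it. That pair was the 1 pair where a pig number did not follow the odd and even numbering of males and females that 79 of 80 pigs followed, and 10 spots went beyond 1.5 (log2) on this array while staying under 1 on all others of the series. Such lone spots numbered 0 to 5 on the other 39 BF arrays, with a median of 0 over all 40. The SD of its ratios, 0.290, was exceeded on 3 BF arrays. Its ratio for the male gene SRY was 0.02, and 21 of the 40 arrays had a ratio of larger size. Whether the spot detected SRY RNA in loin muscle is not known, so this ratio cannot tell the sex of the pigs.

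The male and the female pair of each litter were then set side by side. With the dye effect removed, the ratios of the 2 pairs had a median correlation of 0.0137 over all spots, taken across the 20 litters. Over 18 genes, those of smallest p and those of widest spread, the correlation was farthest from 0 for INHA at -0.563 (Spearman's rho -0.353; permutation test, two-sided, p = 0.00889, adjusted over 18 genes 0.160), and it was -0.365 without the 2 farthest litters. For LMCD1 it was 0.294 (p = 0.210) and for JUN 0.195 (p = 0.411).

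Some genes moved together from pair to pair. S100A11 and TYROBP had residuals with a correlation of 0.771 over the 40 arrays (Spearman's rho 0.607), with 0.618 in male and 0.867 in female pairs. Without the 2 arrays farthest out for S100A11 it was 0.606, without the female pair of litter 88 0.609, and in the LMA arrays 0.796. FOLR1, a folate receptor, followed both, at 0.827 with TYROBP (rho 0.695) and 0.742 with S100A11 (rho 0.568), and at 0.727 and 0.603 without that pair. In LMA arrays FOLR1 did so less closely, at 0.287 and 0.274, but this difference was not tested. LMCD1 and MYOD1 had a correlation of 0.650 (rho 0.578) in BF arrays, 0.579 without the 2 farthest arrays and 0.730 in LMA arrays. FOLR1 and MYOD1 were added after their values were seen, so their correlations are a description. For S100A11 and TYROBP the permutation p (two-sided) of Pearson's r was 1e-05, the smallest that 100000 permutations can give, or 0.000165 after adjustment over the 66 pairs computed, and the adjusted p of rho was 0.00211. The 66 pairs include those with FOLR1 and MYOD1, so the adjusted p-values of all pairs depend in part on this later choice.

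INHA and RPN2 (r = 0.579, rho = 0.584, adjusted permutation p 0.00673 for r and 0.00211 for rho) and MYH7 and RPN2 (r = 0.505, rho = 0.522, adjusted permutation p 0.00877 and 0.00594) also varied together, at 0.512 and 0.542 without the 2 farthest arrays. Of the 66 pairs computed, 16 had an adjusted permutation p of r under 0.05. Of the 45 pairs of the 10 widest genes, 10 did. These 10 included LMCD1 and RPN2 (r = 0.488), INHA and MYH7 (0.464) and RPN2 and GOT1 (0.458). They also included LMCD1 and INHA (0.456) and RPN2 and TYROBP (-0.421). Pairs of other wide spots were not computed. LMCD1 and JUN had a correlation of 0.408 (rho 0.434, adjusted permutation p 0.0378 and 0.0320). MYH7 varied against TYROBP, at -0.425 (rho -0.425, adjusted permutation p 0.0320 for both), and at -0.317 without the female pair of litter 88. Without the 2 farthest arrays these were 0.460 for LMCD1 and JUN and -0.407 for MYH7 and TYROBP. In LMA arrays the correlation was 0.556 for INHA and RPN2 and 0.574 for MYH7 and RPN2. It was 0.217 there for LMCD1 and JUN and -0.250 for MYH7 and TYROBP. The differences between BF and LMA arrays were not tested. The permutations treat arrays as exchangeable although pairs of a litter shared some variation (consensus correlation 0.178 in the order of the dyes), so these p-values may be too small.

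**Figure D5:**
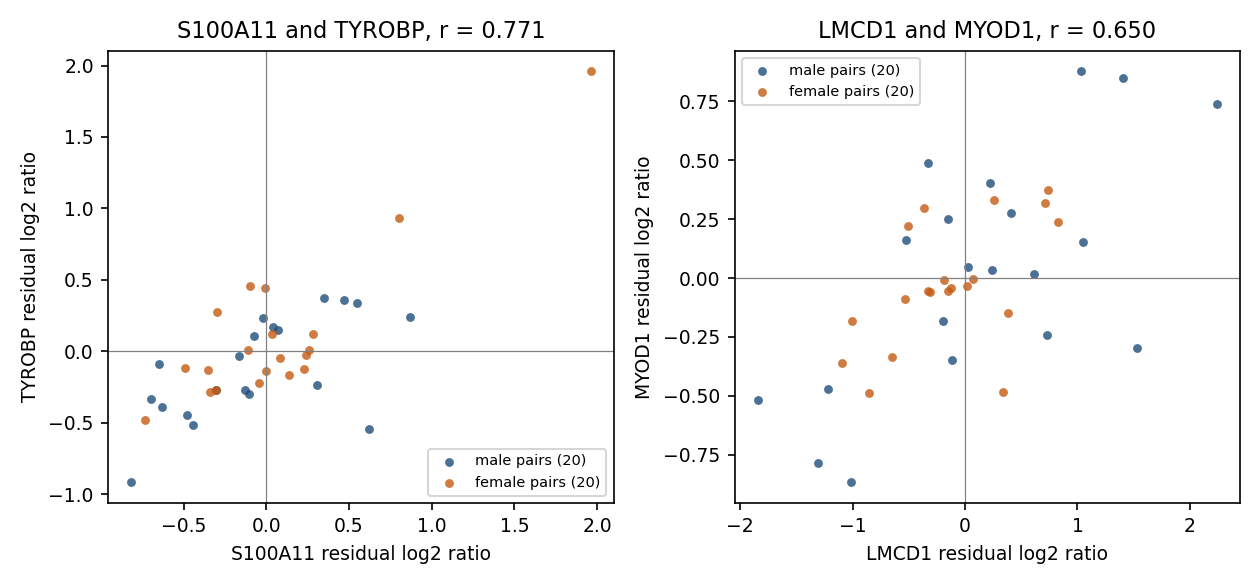
Residual log2 ratios of TYROBP against S100A11 (left) and of MYOD1 against LMCD1 (right) on the 40 backfat arrays, with male pairs in blue and female pairs in orange; the residuals are in the order of the dyes, after the dye and backfat coefficients were removed. The far point at the upper right of the left panel is the female pair of litter 88, without which the correlation is 0.609 (0.771 with it); that of the right panel is 0.650.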

How the data were processed

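The authors extracted median spot intensities from 2-color oligonucleotide arrays without background correction, applied lowess within print tips and an overall scale step, and deposited normalized log2 ratios, 1 per spot and array. These were used as deposited; no value was missing. Control spots were not known and were kept. Over the 40 BF arrays the ratios of a single array had SDs of 0.133 to 0.352 (median 0.221); precision is limited by how many arrays there were.

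Litter, sex, trait and dye came from the labels. After a change of sign that put Cy5 and Cy3 in the same order on every array, limma 3.58.1 in R 4.3.3 (lmFit, eBayes) was run on the 40 BF arrays, with an intercept for dye, a BF column of 1 or -1 by the dye of the high pig, and litter as a random block (duplicateCorrelation). The threshold was an adjusted p of 0.05 (Benjamini-Hochberg, over all 20736 spots). Male and female pairs got a BF column each for the sex difference, and all 88 arrays entered the difference from LMA. Both pairs of a litter share parents, and the arrays were paired by litter. A level common to a whole litter cancels in the ratio of littermates. In the order of the dyes, the median correlation of residuals was 0.108 within litters, against -0.0326 between litters. It was 0.109 in litters where the male and the female high pig carried different dyes, and 0.107 where they carried the same dye. In the order of high and low the consensus correlation was 0.0063. The source of the likeness in the order of the dyes was not tested. Spread is the residual SD without the block. Correlations were tested with 100000 permutations.

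Spots were named from GEO's annotation of the array, which gives a symbol for 178. Named in the text are the 10 named spots of smallest p (fewer than 10 passed), the 10 of widest spread, 3 each for the sex difference and the difference from LMA, members of 21 gene lists (56 of 372 genes with a known symbol on the array, in 20 lists), 2 spots of each sign without a symbol, and examples of each group of roles. The members, lists and tests were chosen with earlier results of these data known. The fit was tested on simulated data. The alternatives were other treatments of litter, no dye term, array weights, other scalings, a filter on spread, robust eBayes, all arrays in 1 fit, other thresholds and leaving out each litter. No column of ratios was left unmapped.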

Additional observations from a re-analysis of the deposited data

How the results depend on the processing

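The count of 0 spots for BF held under 10 other fits and without each of the 20 litters in turn (0 to 0 spots; 874 to 1244 spots at an unadjusted p under 0.05, smallest adjusted p 0.195). Over the 10 fits, 731 to 1423 spots had an unadjusted p under 0.05, fewest where the third of spots with the lowest spread was left out (13824 spots tested) and most with array weights. Other treatments of litter also gave 0. Without a replicate block, which ignores the pairing by litter, 973 spots were under 0.05 unadjusted. With litter as a fixed replicate block there were 907, and with a random replicate block in the order of high and low 956 (consensus correlation 0.0063). The fit with the fixed block drew its BF coefficient only from the 11 litters where the high pigs carried different dyes. In the other 9 litters the block took up the BF column. The replicate block thus changed no call. At an adjusted p under 0.1 the count was 0 for BF, for the sex difference and for BF minus LMA. Without adjustment the counts were 1009, 1190 and 953. The sex difference had 1009 to 1208 and BF minus LMA 891 to 1529 unadjusted spots over 4 fits each, with 1529 under array weights and 953 in the reported fit, and 836 with the sign of the LMA ratios turned, a choice made after seeing the data. Dye effects passed for 9872 to 10117 spots. None of the 10 named coefficients changed sign in any fit; PRLR moved most, with 0.03 in the fit farthest from its reported 0.04. Without the female pair of litter 88, a choice made after seeing the data, 0 spots passed for BF (1062 unadjusted) and for the sex difference (1101 unadjusted). Among spreads, the percentiles of TYROBP, INHA, RPN2 and GOT1 were 94.1, 94.6, 94.997 and 98.3 by the median absolute deviation, against 97.0, 98.4, 97.2 and 96.9 by the SD. No BF array had an SD above 0.4, so leaving out such arrays changed only BF minus LMA (0 spots, 1383 unadjusted). Channel intensities were not analysed here, so dim spots could not be told from bright ones.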

Other observations

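GLRB, PRLR and JUN, 3 of the 10 named spots with the smallest p, have consecutive spot numbers (15939 to 15941), and RPN2 follows them at 15942. Their residuals correlated at 0.352 for GLRB and PRLR, -0.0642 for PRLR and JUN, 0.0200 for GLRB and JUN, and 0.266 for JUN and RPN2, against a median of 0.0748 over all 20735 neighboring pairs of spots. S100A11, LMCD1 and OCA2, all among the 10 widest, are likewise neighbors (11187 to 11189), with correlations of 0.183 for S100A11 and LMCD1 and -0.132 for LMCD1 and OCA2. These pairs were chosen after their values were seen, and the part of array position was not tested.

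CYP21A2 had a residual SD of 0.35 in BF and 0.10 in LMA arrays. Without the female pair of litter 131, where the ratio was 2.13, its SD over the other 39 BF arrays was 0.11, and the male pair of the same litter had a ratio of 0.18.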
